A study of Homo sapiens with 6 samples.

Results

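SR proteins, heterogeneous nuclear ribonucleoproteins (hnRNPs) and the subunits of splicing factor SF3 are proteins that act in the splicing of pre-mRNA by the spliceosome. Splicing keeps some stretches of a pre-mRNA as exons. These families are taken here as the protein-coding genes in the deposited table whose symbol begins with SRSF and a number, with HNRNP, or with SF3A or SF3B and a number. That gave 43 genes of the 32299 listed, of which 12 are SR proteins, 22 hnRNPs and 9 SF3 subunits. Their messenger RNA was measured by poly(A)-selected paired-end RNA sequencing in U87, an established human glioblastoma cell line. The labels assign 3 libraries to U87 cells made to overexpress tau, a protein that binds and stabilises microtubules in axons, and 3 to U87 cells that received a control vector. They give no vector, promoter, clone or time after transfection. Nor do they say that the libraries are separate cultures, so p-values cover only the variation among these 6 libraries, which could be technical.

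Transcripts of MAPT, which encodes tau, ran against the labels. MAPT had 145, 150 and 176 counts in the tau-labelled libraries, against 279, 391 and 345 counts in the control-labelled libraries. The groups are therefore called by their labels, and every direction given compares tau-labelled with control-labelled libraries. Total counts were 58229083 to 65512119 per library. Of the glioma and glia markers, VIM averaged 1784 FPKM (fragments per length of transcript and sequencing depth, as the authors deposited it) in the tau-labelled and 1346 FPKM in the control-labelled libraries, and CD44 averaged 94.7 FPKM in the tau-labelled and 84.6 FPKM in the control-labelled libraries. NES fell, with means of 2.95 FPKM in the tau-labelled and 12.1 FPKM in the control-labelled libraries (log2 fold change -2.15, edgeR, adjusted p = 3.49e-06). OLIG2 averaged 0.361 FPKM in the tau-labelled and 0.403 FPKM in the control-labelled libraries, and the means of GFAP, SOX2 and S100B lay below 0.2 FPKM under both labels. Summed endothelial markers (3 genes) were at 0.192 to 0.377 FPKM in the tau-labelled and 1.81 to 2.37 FPKM in the control-labelled libraries. Summed epithelial markers (3 genes) were at 0.212 to 0.495 FPKM in the tau-labelled and 0.589 to 0.733 FPKM in the control-labelled libraries. Of the 3 immune markers sought, no row was found under the symbol PTPRC, and AIF1 had 0 counts in every library. CD14 was at 0.116 to 0.154 FPKM in the tau-labelled and 0.759 to 1.14 FPKM in the control-labelled libraries. Neuron markers (4 genes) summed to 38.3 to 48.7 FPKM in the tau-labelled and 24.6 to 32.7 FPKM in the control-labelled libraries, nearly all of it TUBB3, a tubulin that glioma cells also express. The part of these differences in the results on splicing factors was not tested, and in bulk samples fewer cells of a type and less RNA per cell cannot be told apart.

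SR proteins bind exonic enhancers through RNA recognition motifs, and their arginine-serine tails recruit the spliceosome to the nearby splice sites. The hnRNPs coat nascent transcripts, and many of them repress the exons they bind, so that the balance between both families sets much of alternative splicing. SF3a and SF3b belong to the U2 small nuclear ribonucleoprotein and hold it on the branch point of the intron. Many SR protein and hnRNP genes also limit their own output by splicing in exons that send the transcript to nonsense-mediated decay. By the transcript types in the deposited table, 26 of the 43 genes (60.5%) had at least 1 transcript marked for nonsense-mediated decay. Of the 13622 protein-coding genes tested, 37.9% had one. A transcript with a retained intron was annotated for 29 of the 43 genes (67.4%) and for 56.4% of the protein-coding genes tested. The counts are sums over the transcripts of a gene, so they do not separate these forms.

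The stretches just before the start sites of 4 genes that the results turn on are shown here: SRSF6 and HNRNPM, which had the largest rises among members that passed the test, and HNRNPC and SF3B2, the 2 members that fell. They are the 250 bases upstream of the RefSeq start on GRCh38.p14, written 5′ to 3′ on the strand of the gene, with capitals marking matches to any of the motifs searched: the E-box (CACGTG), the CCAAT box (CCAAT), the GC box (GGGCGG), the TATA box (TATAAA), an ETS site (CCGGAAG), an E2F site (TTTCCCGC or TTTGGCGC) and the CRE (TGACGTCA). Both strands were searched, and the RefSeq starts need not be those of the deposited table.
SRSF6, chr20:43457646-43457895, plus strand: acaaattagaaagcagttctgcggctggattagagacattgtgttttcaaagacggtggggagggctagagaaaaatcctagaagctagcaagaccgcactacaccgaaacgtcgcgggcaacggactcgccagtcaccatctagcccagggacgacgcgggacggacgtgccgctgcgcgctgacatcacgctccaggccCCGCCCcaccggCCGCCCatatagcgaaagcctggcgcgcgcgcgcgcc
HNRNPM, chr19:8444725-8444974, plus strand: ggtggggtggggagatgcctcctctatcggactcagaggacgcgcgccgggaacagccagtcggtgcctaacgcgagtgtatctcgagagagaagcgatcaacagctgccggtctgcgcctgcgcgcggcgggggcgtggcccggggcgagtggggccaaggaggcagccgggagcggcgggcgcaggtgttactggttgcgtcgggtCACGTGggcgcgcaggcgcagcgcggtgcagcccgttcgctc
HNRNPC, chr14:21269443-21269692, minus strand: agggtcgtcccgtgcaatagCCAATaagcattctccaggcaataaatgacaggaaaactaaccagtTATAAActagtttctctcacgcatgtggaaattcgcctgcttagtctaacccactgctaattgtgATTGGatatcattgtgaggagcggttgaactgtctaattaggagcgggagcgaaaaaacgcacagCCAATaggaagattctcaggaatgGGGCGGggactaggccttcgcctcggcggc
SF3B2, chr11:66052114-66052363, plus strand: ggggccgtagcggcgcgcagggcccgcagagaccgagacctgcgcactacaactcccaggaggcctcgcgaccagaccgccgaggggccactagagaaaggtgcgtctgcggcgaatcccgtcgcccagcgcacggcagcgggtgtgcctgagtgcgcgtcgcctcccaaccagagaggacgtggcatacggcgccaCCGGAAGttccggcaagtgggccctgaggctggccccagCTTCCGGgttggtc
The window of SRSF6 held GC boxes on the opposite strand, that of HNRNPM an E-box, that of HNRNPC CCAAT boxes on both strands with a TATA box and a GC box, and that of SF3B2 an ETS site on each strand. Windows were matched by symbol for 40 of the 43 genes, not for HNRNPA1, SF3B3 and SRSF2, and 11 genes have more than 1 start site. Over these 55 windows, the GC box was found in 60.0% (42.6% of all 35116 windows of this length), the CCAAT box in 41.8% (32.0% of all), the ETS site in 20% (8.52% of all) and the E-box in 16.4% (6.35% of all). The TATA box was found in 10.9% (10.7% of all), the E2F site in 9.09% (1.93% of all) and the CRE in 0 windows (1.65% of all). Matches to different motifs overlapped in 2 of the 55 windows. A match describes these letters only, and several of the windows belong to the same gene.

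Most of these genes were abundant, and each family covered a wide range. The mean FPKM over the 6 libraries, a level per length, had a median of 36.5 over the tested hnRNPs, 32.1 over the SF3 subunits and 22.4 over the tested SR proteins. SF3B5, a small subunit of SF3b, was the most abundant of the 43 genes (181 FPKM), followed by HNRNPK, HNRNPA1, HNRNPAB and HNRNPF, and SRSF2 was the most abundant SR protein (67.6 FPKM). The 10 most abundant were 6 hnRNPs, 3 SF3 subunits and SRSF2. At the low end, SRSF8, an intronless copy of SRSF2, averaged 4.78 FPKM and HNRNPA1L2, an intronless copy of HNRNPA1, 0.398 FPKM. SRSF12 had 0, 3 and 0 counts in the tau-labelled libraries and 0 counts in each control-labelled library, and HNRNPCL1, a copy of HNRNPC, had 0 counts in all 6 libraries. These last 2 genes were the only members of the 43 that did not pass the filter on low counts.

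Without offsets for GC content and transcript length, as in the rest of this paragraph, more of the splicing factors rose than fell, most of them by small amounts. With these offsets, described below, 10 members rose and 14 fell, beside 23.6% and 25.1% of 17547 genes. Of the 41 genes tested, 12 rose (29.3%), 2 fell (4.88%) and 27 did not pass an adjusted p of 0.05 by the quasi-likelihood test of edgeR, with p-values adjusted by Benjamini and Hochberg's method over all genes tested. Among all 17927 genes tested, 21.3% rose and 21.4% fell. Among the 3717 protein-coding genes with a mean of at least 10 FPKM, a range that holds most of the members, 19.8% rose and 30.4% fell. By adjusted p alone, the share of members that rose was thus moderately above the background and the share that fell well below it. With a log2 fold change of at least 0.5 in size as well, 5 of the 41 members rose and 0 fell. Of all genes tested, 17.8% rose and 17.7% fell by both limits, so the members then lay below the background in both directions. The median log2 fold change of the members was 0.21, beside 0.0044 over all genes tested and -0.08 over the abundant protein-coding genes. The fold change was above 0 for 31 of the 41 genes, and 21 of the 41, counting both directions, had an unadjusted p below 0.05. After scaling by TMM, all tau-labelled libraries lay above all control-labelled ones for 17 members and below them for 5, beside 27.5% and 27.1% of all genes tested. Scaling by library size alone moved the median of all genes to 0.12 and that of the members to 0.32. The count that rose was 7 without control-labelled library 1 and 6 without control-labelled library 2, tau-labelled library 1 or tau-labelled library 2. The count that fell was 4 without control-labelled library 1 and 1 without tau-labelled library 1 or 2. The shares of all genes in these smaller fits are not given here, so these counts were not compared with the background.

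The counts by family stand beside 21.3% risen and 21.4% fallen of all genes tested. Of 21 hnRNPs tested, 9 rose and 1 fell, with a median log2 fold change of 0.26. Of 11 SR proteins tested, 3 rose and 0 fell by edgeR, with a median of 0.13; 1 was lower at an unadjusted p below 0.05, and DESeq2 called that 1, SRSF8. Of 9 SF3 subunits, 0 rose and 1 fell by edgeR, with a median of 0.04; 1 was higher at an unadjusted p below 0.05, and 0 rose by DESeq2. With offsets for GC content and length, 7 hnRNPs rose and 6 fell (median 0.05), 1 SR protein rose and 5 fell (median -0.15), and 2 SF3 subunits rose and 3 fell (median 0.11). Of all genes tested with the offsets, 23.6% rose and 25.1% fell. Summed over all members of a family, hnRNPs reached 946, 987 and 933 FPKM in the tau-labelled libraries, against 695, 724 and 773 FPKM in the control-labelled libraries. SR proteins summed to 317, 317 and 276 FPKM in the tau-labelled libraries, against 239, 239 and 280 FPKM in the control-labelled libraries. SF3 subunits summed to 413, 410 and 464 FPKM in the tau-labelled libraries, against 449, 436 and 432 FPKM in the control-labelled libraries. The hnRNP sums did not overlap between the labels, whereas the SR sums overlapped through tau-labelled library 3 and control-labelled library 3, and the SF3 sums overlapped through tau-labelled library 3. Whether the families differ from each other was not tested.

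**Figure D1:**
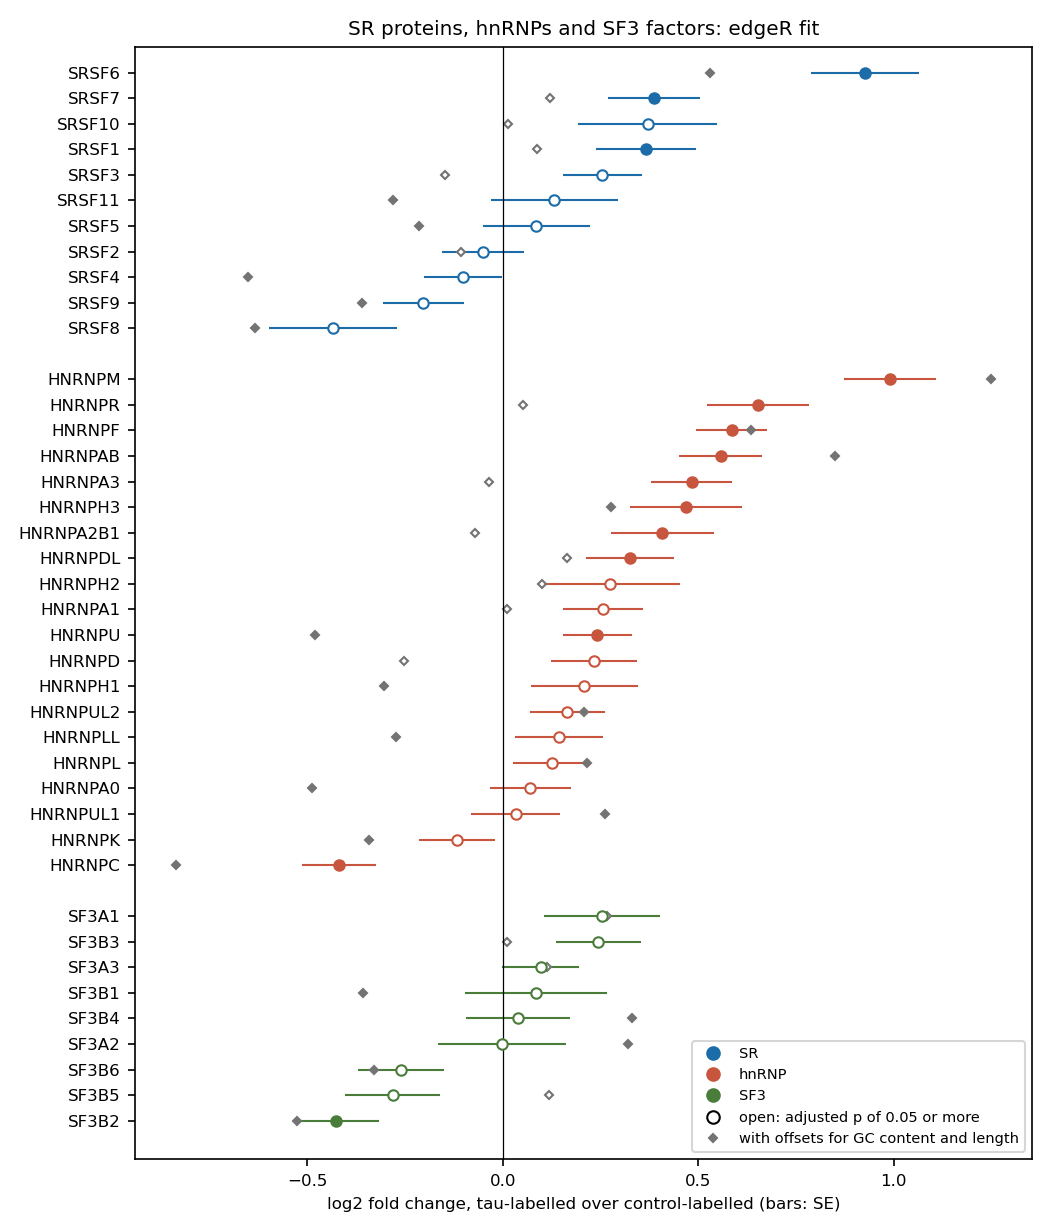
Log2 fold change of tau-labelled over control-labelled libraries (horizontal axis, bars are SE of edgeR's fit, 3 libraries per label) for 40 of the tested members by family, with filled circles for an adjusted p below 0.05 and open circles for the others; grey diamonds give the fit with offsets for GC content and length. SRSF6 and HNRNPM lie furthest to the right, HNRNPC and SF3B2 are the filled circles left of 0, and HNRNPA1L2 (1.91) is not drawn.

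The calls for many of these genes moved with a correction for base composition. The transcripts of the members are poorer in GC than those of other genes (median 42.3% over the 43, 48.5% over protein-coding genes tested), and fold changes fell with GC content across all genes (Spearman's rho -0.31 across 17547 genes, -0.17 across the 41 members; genes are not independent replicates and share the same 6 libraries). Genes with less than 42.4% GC stood above genes with more than 56.0% GC by 0.71, 0.87 and 0.40 log2 CPM in the tau-labelled libraries, against -0.33, 0.01 and 0.32 in the control-labelled libraries, each relative to the mean of the control-labelled libraries. Tau-labelled library 3 and control-labelled library 3 came closest to each other on this measure, and the SR sums of these libraries overlapped. With offsets for GC content and transcript length fitted per library, 10 members rose and 14 fell, beside 23.6% and 25.1% of 17547 genes, and the median of the members was 0.01. The offsets remove any real difference that follows GC content together with a technical one, and these cannot be told apart here.

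HNRNPH3, HNRNPM, SRSF6, HNRNPF and HNRNPAB rose in both fits, and SF3B2 and HNRNPC fell in both. SRSF7, HNRNPA2B1, HNRNPR, SRSF1, HNRNPDL, HNRNPU and HNRNPA3 rose without the offsets but not with them, and HNRNPU fell with them (log2 fold change -0.48). The genes called only with offsets were 11 that fell (SRSF4, SRSF5, SRSF8, SRSF9, SRSF11, HNRNPA0, HNRNPH1, HNRNPK, HNRNPLL, SF3B1 and SF3B6) and 5 that rose (HNRNPL, HNRNPUL1, HNRNPUL2, SF3A2 and SF3B4). Over the 15 other settings tried, 5 of the 14 calls held in every one: HNRNPM, SRSF6, HNRNPF, HNRNPAB and HNRNPC.

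**Figure D2:**
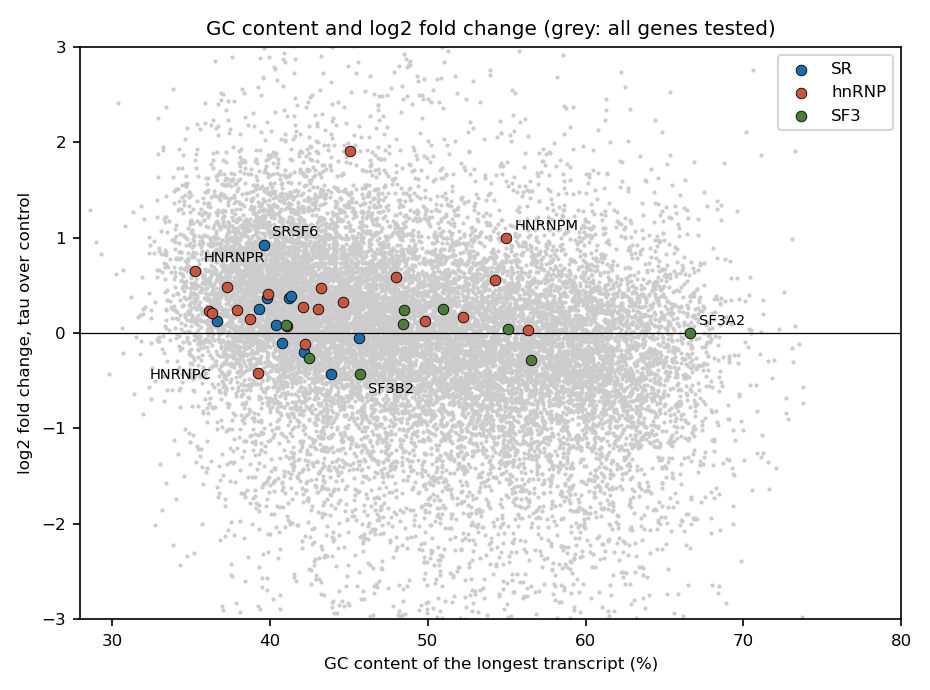
GC content of the longest annotated transcript (horizontal axis, %) against log2 fold change of tau-labelled over control-labelled libraries (vertical axis, shown from -3 to 3) for the members with a value, coloured by family, and in grey for all genes tested with a GC value in this range. Grey points slope downwards with GC content; HNRNPM and HNRNPC lie away from that slope on either side of 0.

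Among the SR proteins, SRSF6 stood apart. SRSF6 (ENSG00000124193, chromosome 20, 43457893 to 43464243 on GRCh38), a regulator of exon inclusion that acts on the tau pre-mRNA among others, had 33.5, 32.0 and 24.9 FPKM in the tau-labelled libraries, against 12.9, 13.5 and 17.4 FPKM in the control-labelled libraries. Every tau-labelled library lay above every control-labelled one, with library 3 the lowest of the tau-labelled and the highest of the control-labelled set. Its mean was 30.1 ± 4.59 FPKM in the tau-labelled and 14.6 ± 2.44 FPKM in the control-labelled libraries (SD, n = 3 each). SRSF6 rose 1.9-fold by edgeR's fit, or 0.93 on the log2 scale (SE 0.14, edgeR, adjusted p = 0.000686), and 0.53 with the offsets (adjusted p = 0.000858).

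SRSF7 and SRSF1 rose less. SRSF7, which carries a zinc knuckle and helps export spliced mRNA, had 24.8, 25.1 and 19.7 FPKM in the tau-labelled libraries, against 14.9, 16.4 and 17.8 FPKM in the control-labelled libraries. These values did not overlap, and the log2 fold change was 0.39 (SE 0.12, edgeR, adjusted p = 0.0232; 0.12 with the offsets, adjusted p = 0.23). SRSF1, the classical SR protein and a known oncogene, had 49.5, 49.1 and 40.4 FPKM in the tau-labelled libraries, against 30.4, 29.3 and 39.9 FPKM in the control-labelled libraries. Tau-labelled library 3 and control-labelled library 3 were nearly equal, and after TMM scaling the groups overlapped. Its log2 fold change was 0.37 (SE 0.13, edgeR, adjusted p = 0.0425; 0.09 with the offsets, adjusted p = 0.414). The calls for SRSF1 and SRSF7 were also lost when any of control-labelled libraries 1 and 2 or tau-labelled libraries 1 and 2 was left out.

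SRSF2, a marker of nuclear speckles, had 70.6, 71.4 and 65.4 FPKM in the tau-labelled libraries, against 68.8, 58.9 and 70.3 FPKM in the control-labelled libraries. The groups overlapped, and the log2 fold change was -0.05 (SE 0.10, edgeR, adjusted p = 0.728; 0.06 by library size alone). SRSF8 had 4.81, 4.62 and 3.33 FPKM in the tau-labelled libraries, against 4.33, 5.46 and 6.11 FPKM in the control-labelled libraries, a log2 fold change of -0.43 (SE 0.16, edgeR, adjusted p = 0.0566). It overlapped in FPKM and did not pass the test, although its change was as large as that of the members that fell. SRSF8 and SRSF2 share sequence, so reads may have been split between them. The FPKM of SRSF8 was 0.0612 ± 0.00907 of that of SRSF2 in the tau-labelled and 0.0808 ± 0.0157 in the control-labelled libraries (SD, n = 3 each).

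The other SR proteins tested did not pass, and were spread around 0. SRSF10, which represses splicing when it is dephosphorylated, had a log2 fold change of 0.37 (SE 0.18, adjusted p = 0.124), and 0.59 without control-labelled library 3, where it passed the test. It had 6.99, 7.34 and 5.49 FPKM in the tau-labelled libraries, against 3.70, 4.20 and 6.28 FPKM in the control-labelled libraries. Control-labelled library 3 was thus the one that overlapped the tau-labelled range. SRSF3, the smallest of the family and an adaptor of mRNA export, had a log2 fold change of 0.25 (adjusted p = 0.067). SRSF11, SRSF5, SRSF4 and SRSF9 had log2 fold changes of 0.13, 0.09, -0.10 and -0.20, with edgeR adjusted p of 0.143 to 0.649.

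**Figure D3:**
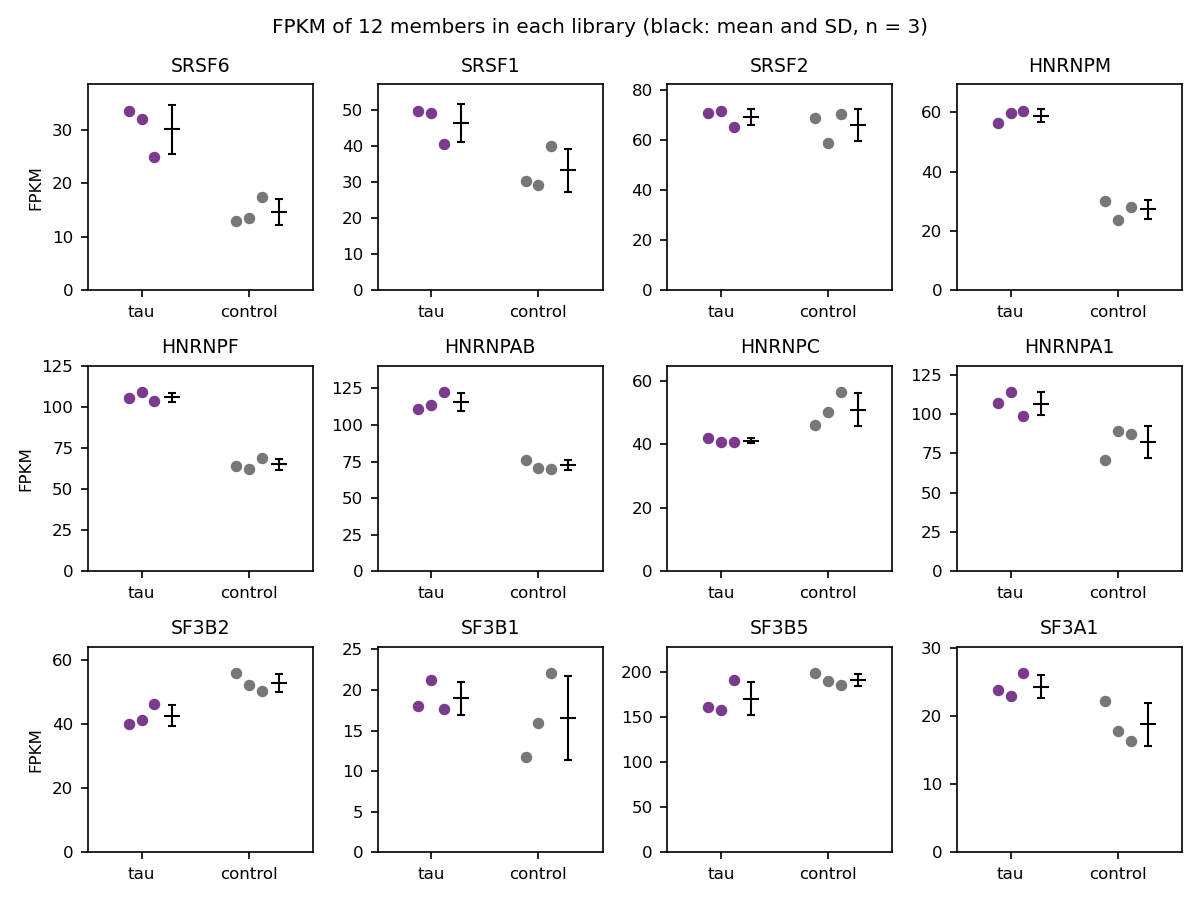
FPKM in each library (vertical axes, each from 0) of 12 members, with tau-labelled libraries in purple left of control-labelled libraries in grey, and the mean and SD of 3 libraries in black. SRSF6, HNRNPM, HNRNPF and HNRNPAB show a gap between the labels with tau higher, HNRNPC and SF3B2 a gap with tau lower, and SRSF2, SF3B1 and SF3B5 overlap.

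Among the hnRNPs, HNRNPM rose most. HNRNPM (ENSG00000099783, chromosome 19, 8444767 to 8489114), which binds GU-rich intronic sites and is known from splicing programmes of mesenchymal cancer cells, had 56.4, 59.9 and 60.3 FPKM in the tau-labelled libraries, against 30.0, 23.8 and 28 FPKM in the control-labelled libraries. The groups were far apart, with the lowest tau-labelled library well above the highest control-labelled one. Its mean was 58.9 ± 2.13 FPKM in the tau-labelled and 27.2 ± 3.14 FPKM in the control-labelled libraries (SD, n = 3 each). HNRNPM rose 1.99-fold, a log2 fold change of 0.99 (SE 0.12, edgeR, adjusted p = 0.000202), and with the offsets 1.25 (adjusted p = 5.16e-06). Over the other settings its log2 fold change lay between 0.89 and 1.25.

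HNRNPF and its relatives bind runs of G near splice sites. HNRNPF (ENSG00000169813, chromosome 10, 43385617 to 43409166) had 105.3, 108.8 and 103.4 FPKM in the tau-labelled libraries, against 63.8, 62.5 and 68.9 FPKM in the control-labelled libraries. The groups did not overlap, and HNRNPF rose 1.5-fold (log2 fold change 0.59, SE 0.09, edgeR, adjusted p = 0.000801; 0.64 with the offsets). HNRNPH3 had 15.8, 16.7 and 12.8 FPKM in the tau-labelled libraries, against 8.36, 9.68 and 12.2 FPKM in the control-labelled libraries, so that libraries 3 of both labels nearly met. HNRNPH3 rose by 0.47 on the log2 scale (SE 0.14, edgeR, adjusted p = 0.0244), a call that was lost without control-labelled library 1 or 2 or tau-labelled library 1 or 2. HNRNPH3 overlaps RUFY2 on the other strand, whose counts were 1023, 1093 and 999 in the tau-labelled and 361, 458 and 955 in the control-labelled libraries, 18.2% of those of HNRNPH3 on average. HNRNPH1 and HNRNPH2 had log2 fold changes of 0.21 and 0.27 and did not pass (edgeR, adjusted p = 0.25 and 0.245). HNRNPH2 overlaps RPL36A-HNRNPH2 on the same strand, which had 1028, 57 and 1262 counts in the tau-labelled and 654, 885 and 1234 in the control-labelled libraries. Reads may have been split between HNRNPH2 and RPL36A-HNRNPH2.

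HNRNPAB (ENSG00000197451, chromosome 5, 178204533 to 178211163), which binds RNA and single-stranded DNA and is linked to mRNA transport, had 110.7, 113.7 and 122.3 FPKM in the tau-labelled libraries, against 76.3, 70.8 and 70.0 FPKM in the control-labelled libraries. The groups did not overlap, and HNRNPAB rose 1.47-fold (log2 fold change 0.56, SE 0.11, edgeR, adjusted p = 0.00257; 0.85 with the offsets). HNRNPR, a partner of the SMN protein that binds actin mRNA in axons, had 19.3, 21.7 and 18.3 FPKM in the tau-labelled libraries, against 9.80, 11 and 14.1 FPKM in the control-labelled libraries. It rose 1.57-fold with no overlap (log2 fold change 0.65, SE 0.13, edgeR, adjusted p = 0.00318). HNRNPR has the lowest GC content of the members tested (35.3%), and with the offsets its log2 fold change was 0.05 (adjusted p = 0.502).

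Of the A-type hnRNPs, which often repress exon inclusion, HNRNPA3 and HNRNPA2B1 rose. HNRNPA3 had 43.9, 46.8 and 41.1 FPKM in the tau-labelled libraries, against 25.2, 29.5 and 32.3 FPKM in the control-labelled libraries, with no overlap (log2 fold change 0.48, SE 0.10, edgeR, adjusted p = 0.00469; -0.04 with the offsets). HNRNPA2B1, which also traffics RNA to dendrites and exosomes, had 46.6, 49.2 and 43.9 FPKM in the tau-labelled libraries, against 25.6, 32.1 and 39.8 FPKM in the control-labelled libraries. Its log2 fold change was 0.41 (SE 0.13, edgeR, adjusted p = 0.0318; -0.07 with the offsets), and the groups did not overlap, although the control-labelled libraries were spread more widely than the tau-labelled ones. Without control-labelled library 1 or 2, or tau-labelled library 1 or 2, HNRNPA2B1 did not pass.

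HNRNPA1, the best-studied hnRNP, had 106.8, 113.8 and 99.1 FPKM in the tau-labelled libraries, against 70.6, 89.3 and 87.1 FPKM in the control-labelled libraries. All tau-labelled libraries lay above the others, and the log2 fold change of 0.26 (SE 0.10, edgeR, adjusted p = 0.0697; 0.01 with the offsets) did not pass the test. HNRNPA1L2 had 62, 67 and 40 counts in the tau-labelled libraries, against 1, 11 and 31 counts in the control-labelled libraries. The control-labelled counts were widely spread, and the log2 fold change of 1.91 had an SE of 0.80 (edgeR, adjusted p = 0.0807; 3.07 without control-labelled library 3, where it passed). Its span overlaps another gene on the same strand that had 277 to 409 counts per library, and its sequence resembles HNRNPA1, so its counts are uncertain. HNRNPA0, which binds AU-rich elements, had a log2 fold change of 0.07 (adjusted p = 0.617; -0.49 with the offsets).

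HNRNPC was the only hnRNP that fell by edgeR without offsets, and HNRNPC and HNRNPM moved in opposite directions. HNRNPC (ENSG00000092199, chromosome 14, 21209136 to 21269494), which packages nascent transcripts and keeps Alu-derived exons out of mRNA, had 42.1, 40.8 and 40.6 FPKM in the tau-labelled libraries, against 46.2, 50.1 and 56.3 FPKM in the control-labelled libraries. The tau-labelled libraries agreed closely and lay below each control-labelled one. Its mean was 41.2 ± 0.827 FPKM in the tau-labelled and 50.9 ± 5.12 FPKM in the control-labelled libraries (SD, n = 3 each). HNRNPC fell 1.34-fold, a log2 fold change of -0.42 (SE 0.09, edgeR, adjusted p = 0.00578), and with the offsets of -0.84 (adjusted p = 3.38e-05), although its transcript is GC-poor (39.2%). The ratio of HNRNPC to HNRNPM, by FPKM, was 0.747, 0.681 and 0.673 in the tau-labelled libraries, against 1.54, 2.1 and 2.01 in the control-labelled libraries. HNRNPM thus exceeded HNRNPC under the tau label, and HNRNPC exceeded HNRNPM under the control label, in each library. The pair joins the hnRNP that rose most with the only one that fell, so the ratio restates those calls and gives them no further support.

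HNRNPK, an abundant binder of C-rich sequence, had 108.8, 111.4 and 94.7 FPKM in the tau-labelled libraries, against 94.6, 104.5 and 116.0 FPKM in the control-labelled libraries. The groups overlapped across their whole range, and the log2 fold change was -0.12 (SE 0.10, edgeR, adjusted p = 0.368; -0.34 with the offsets, adjusted p = 0.000659). HNRNPDL and HNRNPU rose by 0.33 and 0.24 on the log2 scale (edgeR, adjusted p = 0.0419 and 0.0491). HNRNPDL had 27.5, 28.3 and 25.9 FPKM in the tau-labelled libraries, against 17.2, 19.7 and 23.4 FPKM in the control-labelled libraries, and leaving out any library but control-labelled library 3 ended its call. HNRNPU, a scaffold protein that also binds chromatin, had 17.9, 18.0 and 17.5 FPKM in the tau-labelled libraries, against 13.5, 13.4 and 14.7 FPKM in the control-labelled libraries. Neither gene overlapped between the labels, and the call for HNRNPU was lost without any library but tau-labelled library 3.

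The remaining hnRNPs did not pass. HNRNPD, which targets mRNAs with AU-rich elements for decay, had a log2 fold change of 0.23 (adjusted p = 0.116), with no overlap in FPKM (21.6 to 22.2 in the tau-labelled and 15.8 to 18.2 in the control-labelled libraries). HNRNPL, which binds CA repeats, HNRNPLL, known from CD45 splicing in T cells, HNRNPUL1 and HNRNPUL2 had log2 fold changes of 0.13, 0.14, 0.03 and 0.16 (edgeR, adjusted p = 0.196 to 0.843). Both HNRNPL and HNRNPUL2 passed with scaling by library size alone, at 0.24 and 0.28.

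Of the SF3 subunits, SF3B2 alone passed the test. SF3B2 (ENSG00000087365, chromosome 11, 66050729 to 66069308), the SF3b subunit that contacts the pre-mRNA next to the branch point together with SF3B4, had 40.2, 41.4 and 46.5 FPKM in the tau-labelled libraries, against 56.0, 52.3 and 50.5 FPKM in the control-labelled libraries. The groups did not overlap, and SF3B2 fell 1.34-fold (log2 fold change -0.43, SE 0.11, edgeR, adjusted p = 0.0112; -0.53 with the offsets, adjusted p = 0.00729). It did not pass without tau-labelled library 1 or 2. SF3B4 had 54.7, 52.6 and 60.8 FPKM in the tau-labelled libraries, against 56.5, 48.8 and 45.5 FPKM in the control-labelled libraries, with overlap (log2 fold change 0.04, SE 0.13, edgeR, adjusted p = 0.843; -0.06 without control-labelled library 3 and 0.33 with the offsets). The ratio of SF3B2 to its partner SF3B4, by FPKM, was 0.762 ± 0.0257 in the tau-labelled and 1.06 ± 0.0610 in the control-labelled libraries (SD, n = 3 each).

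SF3B1, the large SF3b subunit that is mutated in leukaemias and targeted by splicing inhibitors, had 18.0, 21.3 and 17.6 FPKM in the tau-labelled libraries, against 11.7, 16.0 and 22.0 FPKM in the control-labelled libraries. The control-labelled libraries spread 1.88-fold and enclosed the tau-labelled ones, and the log2 fold change was 0.08 (SE 0.18, edgeR, adjusted p = 0.742; -0.10 without control-labelled library 1). SF3B5 had 161.9, 158.4 and 191.8 FPKM in the tau-labelled libraries, against 198.7, 190.5 and 185.3 FPKM in the control-labelled libraries. Its log2 fold change was -0.28 (SE 0.12, edgeR, adjusted p = 0.0879). Tau-labelled library 3 alone reached the control-labelled range, and without it SF3B5 passed the test at -0.39, whereas with the offsets its log2 fold change was 0.12.

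SF3B6, the small subunit that sits at the branch point adenosine, had a log2 fold change of -0.26 (adjusted p = 0.0846). SF3B3, a scaffold of SF3b, and SF3A1, an SF3a subunit, had log2 fold changes of 0.24 and 0.25 (edgeR, adjusted p = 0.0983 and 0.197), and passed with scaling by library size alone at 0.36 and 0.37. SF3A3 and SF3A2, the other SF3a subunits, had log2 fold changes of 0.10 and -0.0019 (edgeR, adjusted p = 0.464 and 0.994). SF3A2 is the GC-richest of the members tested (66.6%), and its log2 fold change was 0.32 with the offsets. It overlaps PLEKHJ1 on the other strand, whose counts were 91.4% of its own on average.

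**Figure D4:**
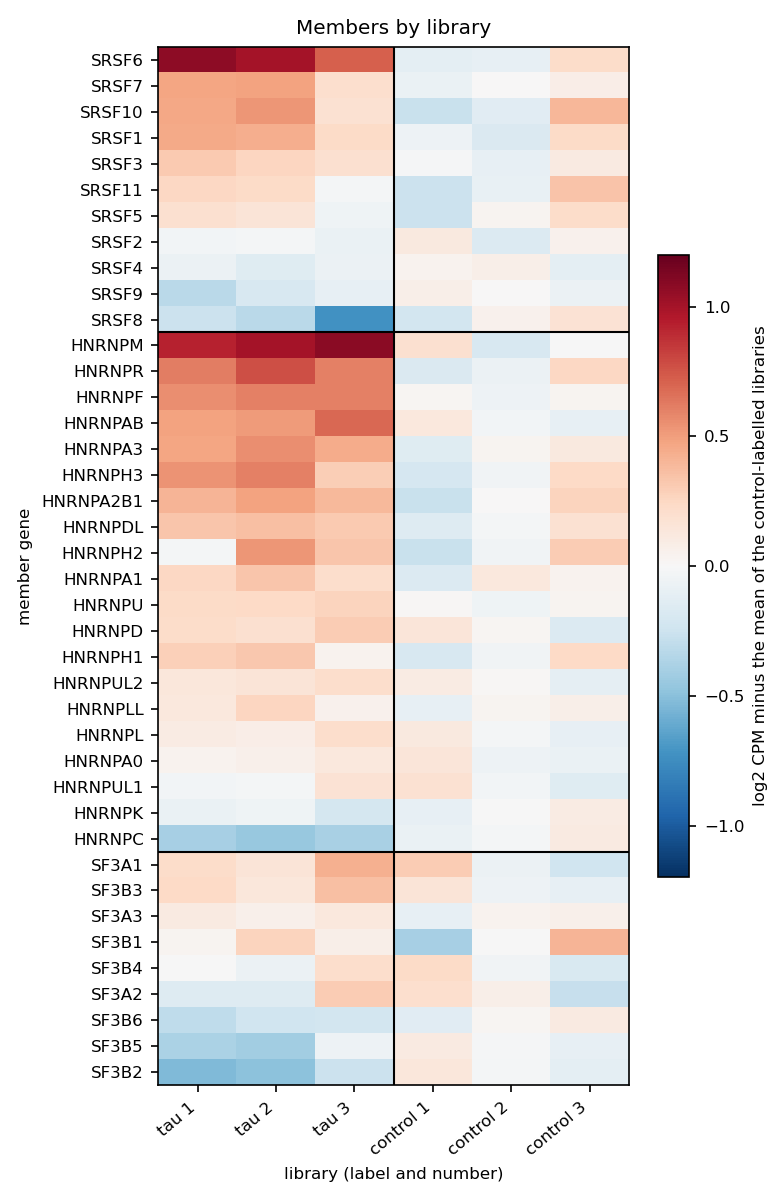
Log2 CPM of each member minus its mean over the control-labelled libraries (colour, red higher and blue lower), with members down the page by family and fold change, and the libraries across, tau-labelled left of control-labelled. SRSF6 and HNRNPM are the deepest red in the tau-labelled columns, HNRNPC and SF3B2 are blue there, and control-labelled library 3 is redder than the other control-labelled libraries for many SR proteins and hnRNPs; HNRNPA1L2 is not drawn.

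The libraries of a label did not rank the members evenly. Control-labelled library 3 was the highest of its label for 24 of the 41 members and the lowest for 14. Control-labelled library 1 was the lowest for 21 and the highest for 15. Of the tau-labelled libraries, library 3 was the lowest for 19 members and the highest for 20. The median difference of the members from the control-labelled mean was 0.22, 0.23 and 0.21 log2 CPM in the tau-labelled libraries, against -0.08, -0.02 and 0.07 in the control-labelled libraries. This median over all members was higher in each tau-labelled library than in any control-labelled one, without the offsets. By family, the hnRNP median was 0.25, 0.33 and 0.29 in the tau-labelled libraries, against -0.10, -0.02 and 0.07 in the control-labelled libraries. The SR median was 0.25, 0.23 and -0.02 in the tau-labelled libraries, against -0.08, -0.09 and 0.17 in the control-labelled libraries. The SF3 median was -0.0053, -0.07 and 0.13 in the tau-labelled libraries, against 0.13, -0.0099 and -0.10 in the control-labelled libraries. The medians of the SR proteins and of the SF3 subunits thus overlapped between the labels, and those of the hnRNPs did not.

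Rows of the table that share these names without a protein-coding transcript, mostly pseudogenes of HNRNPA1, were kept apart. Of 60 such rows, 19 were tested, 0 rose and 1 fell by edgeR's test (1 was higher at an unadjusted p below 0.05, and 0 rose by DESeq2), and 7 had 0 counts in every library. The row that fell was HNRNPKP4, with 285, 260 and 311 counts in the tau-labelled libraries, against 622, 371 and 351 counts in the control-labelled libraries (log2 fold change -0.75, edgeR, adjusted p = 0.0329). HNRNPA1P7, the most counted copy of HNRNPA1, had 971, 1072 and 981 counts in the tau-labelled libraries, against 727, 863 and 777 counts in the control-labelled libraries. Reads of such copies and of their parent genes may have been assigned to one another. Of the members, 24 overlap another gene of the table, and for 8 of them the overlapping gene had at least 10% of the counts of the member: HNRNPA1L2, HNRNPA2B1, HNRNPH2, HNRNPH3, HNRNPUL1, SF3A2, SRSF2 and SRSF9. Whether the counting used strand is not given in the sources used here, so reads of such pairs may have been counted together. For HNRNPA1L2 and HNRNPH2 the overlapping gene lies on the same strand, so counting by strand would not separate them.

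Other genes of the splicing machinery were counted in 7 lists. Of the 99 rows tested, 35 rose (35.4%) and 11 fell (11.1%), beside 21.3% and 21.4% of all genes tested. With limma on log2(FPKM + 0.5), which lacks TMM scaling and took only genes with a mean of at least 1 FPKM, the split was 44 and 6. No share of all genes is given here for limma. With the offsets the split was 35 and 17, beside 23.6% and 25.1% of 17547 genes.

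Of 16 cofactors with arginine-serine domains that work beside SR proteins, 6 rose and 1 fell (median log2 fold change 0.16). TRA2A, a partner of SR proteins on exonic enhancers, averaged 11.1 ± 0.410 FPKM in the tau-labelled and 4.5 ± 1.02 FPKM in the control-labelled libraries (SD, n = 3 each; log2 fold change 1.18, edgeR, adjusted p = 0.000289). BCLAF1, a speckle-associated RNA-binding protein, and SRRM2, a scaffold of nuclear speckles, rose by 0.93 and 0.71 on the log2 scale (edgeR, adjusted p = 0.000761 and 0.0019). All 6 genes that rose in this list also rose with the offsets.

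The kinases that phosphorylate SR proteins and the nuclear import receptors listed with them, TNPO3 and TNPO1, moved in both directions. Of 9 tested, 4 rose and 3 fell, with a median log2 fold change of 0.29. SRPK1, the cytoplasmic kinase that primes SR proteins for import, averaged 11.3 ± 1.71 FPKM in the tau-labelled and 4.66 ± 1.63 FPKM in the control-labelled libraries (SD, n = 3 each; log2 fold change 1.17, edgeR, adjusted p = 0.00203). TNPO3, the import receptor of SR proteins, rose by 0.79 on the log2 scale (edgeR, adjusted p = 0.000759). CLK3, one of the nuclear CLK kinases that release SR proteins from speckles, averaged 2.11 ± 0.155 FPKM in the tau-labelled and 4.08 ± 0.218 FPKM in the control-labelled libraries (SD, n = 3 each; log2 fold change -1.06, edgeR, adjusted p = 0.000129). CLK1 and CLK2, named after their values were seen, also fell, at -1.22 and -0.71 (edgeR, adjusted p = 0.00391 and 0.00449), and CLK4 had -0.23 (edgeR, adjusted p = 0.461). SRPK1, TNPO3, CLK1, CLK2 and CLK3 kept their calls in each of the 15 other settings, whereas TNPO1 and DYRK1A, the other members of this list that rose, did not pass with the offsets.

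Of 18 rows tested for proteins of the hnRNP class with other symbols, 10 rose and 1 fell (median log2 fold change 0.42). PTBP3, a paralogue of the polypyrimidine tract binding protein, and SYNCRIP, a close relative of HNRNPR, rose by 1.24 and 0.72 on the log2 scale (edgeR, adjusted p = 0.00027 and 0.0013). CIRBP, a cold-inducible RNA-binding protein, averaged 8.30 ± 0.499 FPKM in the tau-labelled and 14.3 ± 0.603 FPKM in the control-labelled libraries (SD, n = 3 each; log2 fold change -0.90, edgeR, adjusted p = 0.000246). With the offsets 6 of these rows rose and 1 fell, and SYNCRIP was among those no longer called (0.15, adjusted p = 0.096). MATR3 is listed under 2 gene identifiers, of which 1 rose.

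Of 14 partners of SF3 in the U2 particle, 5 rose and 0 fell by edgeR's test (median log2 fold change 0.35), while 1 was lower at an unadjusted p below 0.05 and 1 fell by DESeq2. CHERP, RBM17 and U2SURP, which bind one another and the U2 particle, rose by 1.10, 0.84 and 0.99 on the log2 scale (edgeR, adjusted p = 0.00032, 0.000449 and 0.000744) and held these calls in all 15 other settings. CHERP averaged 15.1 ± 0.574 FPKM in the tau-labelled and 6.46 ± 0.966 FPKM in the control-labelled libraries (SD, n = 3 each). PHF5A, the SF3b subunit whose symbol lies outside the SF3 names, had a log2 fold change of -0.37 (adjusted p = 0.0587), and was named after its value was seen. Among 19 proteins of the Sm ring, U1, U5 and the tri-snRNP or their associated complexes (median log2 fold change -0.06), 4 rose and 1 fell, led by CDC5L, PRPF19 and PRPF4, with log2 fold changes of 0.89, 0.53 and 0.37 (edgeR, adjusted p = 0.00111, 0.00671 and 0.0159). With the offsets 9 of these 19 rose and 1 fell.

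Of 17 tissue-type and other splicing regulators tested, 5 rose and 3 fell (median log2 fold change 0.30). CELF2 and the muscleblind proteins MBNL3 and MBNL1, which control splicing in development, rose by 1.54, 1.81 and 0.95 on the log2 scale (edgeR, adjusted p = 0.000213, 0.00105 and 0.00243). MBNL3 was at a low level, with means of 0.444 FPKM in the tau-labelled and 0.117 FPKM in the control-labelled libraries. The 3 that fell, named after their values were seen, were RBM4 (log2 fold change -0.37, edgeR, adjusted p = 0.0387) and the neuronal regulators ELAVL2 and NOVA2. ELAVL2 averaged 0.0163 FPKM in the tau-labelled and 0.272 FPKM in the control-labelled libraries, and NOVA2 0.024 FPKM in the tau-labelled and 0.0981 FPKM in the control-labelled libraries. With the offsets 4 genes of this list rose and 6 fell. The list of arginine methyltransferases, which modify hnRNPs, held 6 genes (median log2 fold change -0.05), among them WDR77, a partner of PRMT5 that is not itself a methyltransferase. PRMT3 rose by 0.76, and PRMT6 and PRMT1 fell, at -0.48 and -0.42 (edgeR, adjusted p = 0.00186, 0.0108 and 0.0212). With the offsets PRMT1 had a log2 fold change of -0.07 (adjusted p = 0.321), and 2 genes of this list rose and 1 fell.

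**Figure D5:**
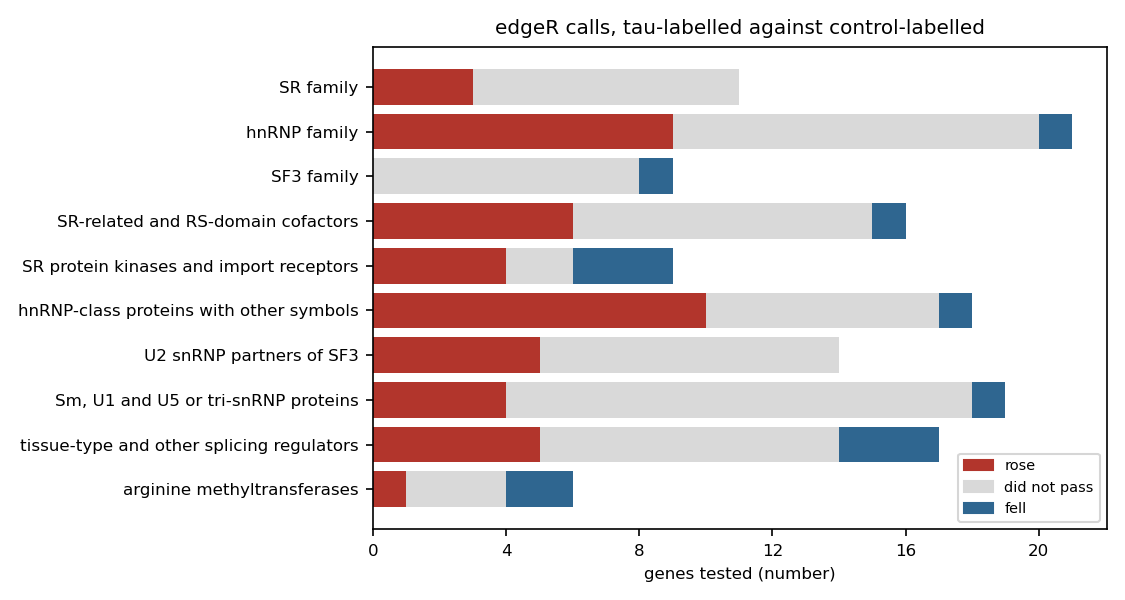
Number of genes tested (horizontal axis) that rose, did not pass or fell by edgeR's test, tau-labelled against control-labelled libraries, for the 3 families and for 7 lists of related splicing genes (down the page). The hnRNP family has 9 risen genes of 21 and the hnRNP-class list 10 of 18, whereas the SF3 family has 0 of 9.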

How the data were processed

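The authors deposited 1 table that holds counts and FPKM for every gene in each library, with the gene symbols, identifiers, coordinates and transcript types used here. Per the submitters' processing notes, cutadapt 1.9, HISAT2 2.2.1 and StringTie 2.1.6 were among the tools, with the build GRCh38. The counting tool is not given in the sources used here. Values of 4 (6724) outnumber values of 3 (3295) among the deposited counts, so these may derive from coverage, and no molecular identifiers are named. Deposited columns were matched to samples by title, with 0 left unmapped.

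The test on counts was run in R 4.3.3 with edgeR 4.0.16: filterByExpr (minimum count 10, minimum total 15) left 17927 genes, scaled with TMM and compared by the quasi-likelihood test (two-sided, label as the only term, Benjamini-Hochberg adjustment over all genes tested). The words rose and fell are used for genes with an adjusted p below 0.05. Folds are those of the fit, whereas FPKM carries no TMM scaling. The SE is the log2 fold change divided by the square root of F. Log2 CPM used a prior count of 2. Alternatives were other scalings, DESeq2 1.42.0, no filter, limma 3.58.1 on log2 FPKM (pseudocounts 0.5, 0.1 and 1, mean of at least 1 FPKM), the replicate number as a block, each library left out, and offsets from splines on GC content and length of the longest GENCODE transcript, known for 97.9% of genes tested.

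Values in every library are given for the largest rises and falls called in each family (up to 4 each way), the 2 most abundant members and members not tested, and for other members chosen after their values were seen. In each related list the 3 called genes with the smallest p are named. The members and lists were chosen with earlier results of these data known.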

Additional observations from a re-analysis of the deposited data

Results flagged for a closer look

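Rows outside the protein-coding members that had counts in tau-labelled libraries and 0 counts in all 3 control-labelled libraries were singled out. The largest was HNRNPUL2-BSCL2, a readthrough of HNRNPUL2 into its neighbour, with 588 counts over the tau-labelled libraries, all of them in tau-labelled library 3. Others were pseudogenes with few counts: HNRNPA1P33 had 14 counts over the tau-labelled libraries, HNRNPA1P68 8, SRSF10P1 8, HNRNPA1P51 6, HNRNPA1P28 4 and HNRNPA1P62 4. Further pseudogenes with this pattern, such as HNRNPA1P25 and HNRNPKP1 with 2 counts each, are not listed. The reverse also occurred: HNRNPA1P14 had 8 counts, all in control-labelled library 3, and 0 in each tau-labelled library. A count of 0 allows up to 3 counts per library, and no difference was tested for these rows.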

How the results depend on the processing

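Counting each member under each other setting, 483 kept direction and side of the threshold, 46 newly passed and 43 no longer passed with the same sign, and 40 changed sign, whether or not they passed. With limma on log2 FPKM (pseudocounts 0.5, 0.1 and 1), 19 members rose at each. The counts of all genes that rose and fell were 4013 and 2330, 3980 and 2317, and 4025 and 2336. By edgeR they were 3822 and 3830. Limma took only genes with a mean of at least 1 FPKM, a different set of genes, and FPKM carries no TMM scaling. Its counts are therefore not directly comparable with those of edgeR. Scaling by library size alone gave 19 risen members, and no filter on low counts gave 7. A minimum size of 0.5 (log2) on top of the adjusted p gave 5 risen and 0 fallen of 41 members. Of all genes tested, 17.8% rose and 17.7% fell with that minimum size, so both shares of the members were lower. With GC and length offsets 14 members fell. The number fallen in the related lists, 11 by edgeR, was 6 with limma at each pseudocount, 7 with no filter, 17 with the offsets and 6 with the size threshold. The median log2 fold change of the members was 0.32 by library size alone, 0.30, 0.31 and 0.29 with limma at pseudocounts 0.5, 0.1 and 1, and 0.011 with the offsets. Leaving out 1 library gave 6 to 13 risen and 1 to 4 fallen members, 6 to 14 fallen genes in the related lists, and a median of 0.15 to 0.19. No share of all genes is given here for limma, library size alone, no filter or a library left out. Those member counts were therefore not compared with the background.

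Same-numbered libraries did not deviate together (r = -0.04, -0.01 and -0.09). The labels do not say whether the numbers pair them, and these correlations cannot settle it. With the replicate number as a block 7 members rose, 2 fell, and 7 genes of the related lists fell, with 36 of 41 member calls as without it. No share of all genes is given here for the fit with the block.

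Signs changed with the offsets for SRSF3 (-0.15), SRSF5 (-0.21), SRSF11 (-0.28), HNRNPA0 (-0.49), HNRNPA2B1 (-0.072), HNRNPA3 (-0.036), HNRNPD (-0.25), HNRNPH1 (-0.30), HNRNPLL (-0.27), HNRNPU (-0.48), SF3B1 (-0.36), SF3A2 (0.32) and SF3B5 (0.12). By library size alone SRSF2 (0.063), SRSF4 (0.012) and SF3A2 (0.11) changed sign. With limma at pseudocounts 0.5, 0.1 and 1, so did SRSF2 (0.0696, 0.070 and 0.069), SRSF4 (0.0162, 0.0167 and 0.0157), HNRNPK (0.0006 at each) and SF3A2 (0.11, 0.11 and 0.11), and with no filter SF3A2 (0.0015). Leaving out 1 library, the log2 fold change ran from -0.14 to 0.0044 for SRSF2, from -0.033 to 0.19 for SRSF5, from -0.052 to 0.12 for HNRNPUL1, from -0.17 to 0.10 for SF3A2, from -0.10 to 0.30 for SF3B1 and from -0.064 to 0.16 for SF3B4. The causes were not tested. Counts were lowest for HNRNPA1L2, SRSF12 and HNRNPCL1, whose values rest on few or no reads.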
